A study of Homo sapiens with 9 samples.

Results

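Hypoxia response genes are genes whose transcription rises when oxygen falls, and 10 of them were described in HEK293 cells, a human embryonic kidney cell line, with RNA sequencing. They were VEGFA, BNIP3, BNIP3L, NDRG1, ADM, P4HA1, PDK1, KDM3A, SLC2A1 and EGLN3, picked by name as well-known targets of the pathway, and they are 10 of the 35876 gene rows of the table. The libraries fell into 3 groups of 3 replicates. All groups were HEK293 cells whose genotype label starts with CC, a term left undefined there, and goes on with Cas9, an RNA-guided DNA nuclease. The genotype CC_Cas9 is called the Cas9 group here, CC_Cas9_Cre the Cre group and CC_Cas9_Flpo the Flpo group. Cre recombines DNA at loxP sites and Flpo does so at FRT sites. The study's title concerns a knockout system that a chemical switches on and that can be undone. The labels name no targeted gene, guide, chemical, oxygen level or promoter, and do not say whether a group is a single clone, so these groups are not a test of hypoxia.

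In cells with enough oxygen, prolyl hydroxylases of the EGLN family mark the HIF alpha subunits, and the VHL ubiquitin ligase then sends them to the proteasome. When oxygen falls the alpha subunits last, pair with ARNT and bind DNA at a short core motif near their target genes. The targets shift cells from mitochondrial respiration toward glycolysis, call for blood vessels, remove mitochondria and feed back on the pathway itself.

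Promoter sequences were taken from RefSeq (GRCh38.p14) for 7 of the 10 genes, as windows from 250 bases before to 50 bases after a start site. The core HIF motif was searched as ACGTG and as GCGTG on both strands, so CACGT and CACGC are its reverse complements, and a palindromic CACGTG counts as 2 overlapping matches. Of 35116 promoter windows, 21.4% held ACGTG, 36.5% held GCGTG and 48.4% held either. The windows of ADM, P4HA1, PDK1 and EGLN3 are shown because the Cre and Flpo values did not overlap for these genes, for EGLN3 on 2 Cre counts. BNIP3L and VEGFA did not overlap either, but no window was available for them or for NDRG1. The BNIP3 window is shown because it held the most matches although the groups overlapped for BNIP3. Each sequence is written 5′ to 3′ on the strand of its gene, with the matches in capitals. They lie at chr11:10304823-10305122 on the plus strand (ADM), chr10:73096817-73097116 on the minus strand (P4HA1), chr2:172555840-172556139 on the plus strand (the second of the PDK1 entries), chr14:33951025-33951324 on the minus strand (EGLN3) and chr10:131981874-131982173 on the minus strand (BNIP3).
ADM: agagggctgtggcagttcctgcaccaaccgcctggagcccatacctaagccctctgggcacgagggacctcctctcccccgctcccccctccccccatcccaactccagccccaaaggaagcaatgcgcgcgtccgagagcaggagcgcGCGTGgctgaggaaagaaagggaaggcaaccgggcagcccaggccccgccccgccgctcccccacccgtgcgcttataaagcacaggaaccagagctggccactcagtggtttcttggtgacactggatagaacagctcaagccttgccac
P4HA1: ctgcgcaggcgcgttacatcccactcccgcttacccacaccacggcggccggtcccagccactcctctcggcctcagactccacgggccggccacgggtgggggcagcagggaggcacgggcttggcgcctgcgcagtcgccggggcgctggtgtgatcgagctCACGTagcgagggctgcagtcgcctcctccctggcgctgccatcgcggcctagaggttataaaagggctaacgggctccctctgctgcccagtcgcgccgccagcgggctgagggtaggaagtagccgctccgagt
PDK1: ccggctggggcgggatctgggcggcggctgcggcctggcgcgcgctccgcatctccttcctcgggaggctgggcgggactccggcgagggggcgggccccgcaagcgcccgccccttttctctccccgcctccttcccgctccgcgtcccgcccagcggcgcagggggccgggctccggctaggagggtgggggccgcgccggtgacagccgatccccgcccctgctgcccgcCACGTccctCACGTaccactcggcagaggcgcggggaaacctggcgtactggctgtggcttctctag
EGLN3: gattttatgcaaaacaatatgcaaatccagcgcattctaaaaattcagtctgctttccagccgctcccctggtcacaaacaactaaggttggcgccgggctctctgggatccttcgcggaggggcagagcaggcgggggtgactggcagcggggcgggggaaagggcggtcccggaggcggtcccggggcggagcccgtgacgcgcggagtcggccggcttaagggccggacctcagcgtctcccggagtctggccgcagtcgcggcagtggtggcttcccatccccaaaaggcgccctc
BNIP3: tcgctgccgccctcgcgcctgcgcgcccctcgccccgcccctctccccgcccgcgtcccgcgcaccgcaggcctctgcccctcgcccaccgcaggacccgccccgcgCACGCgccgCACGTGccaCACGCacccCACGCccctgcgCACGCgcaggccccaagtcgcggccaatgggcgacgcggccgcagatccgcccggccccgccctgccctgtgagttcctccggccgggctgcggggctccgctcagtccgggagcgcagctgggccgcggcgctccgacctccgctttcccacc

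The BNIP3 window held 6 matches, and 0.923% of all windows held 6 or more. PDK1 held 2 matches in the window shown and 0 in its other window, and ADM, P4HA1 and SLC2A1 held 1 each. KDM3A held 1 match in each of its windows, and EGLN3 held 0. Where the cells used these letters was not measured.

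The libraries differed widely in depth. Their totals ran from 993902 to 3761779 estimated counts in the Cas9 group, from 213907 to 1701730 in the Cre group and from 4989524 to 8833491 in the Flpo group, a 41.3-fold range overall. Every Cre library and every Cas9 library was shallower than every Flpo library. Depth and group therefore cannot be told apart in Cre against Flpo or in Flpo against Cas9. Levels are given as TMM-scaled CPM, the count relative to the scaled library total, and 3 counts, the smallest amount treated as detected, came to between 0.479 CPM in Flpo replicate 3 and 11.2 CPM in Cre replicate 2. Cre replicate 2 held 22 counts over all 10 genes, against 1460 in Flpo replicate 3. Of 6 genes fixed as markers of HEK293 cells, the neurofilament gene NEFL was found in all 9 libraries and PAX2 gave 1 count in all. The number of these genes detected in every library of a group was 3 in Cas9, 1 in Cre and 3 in Flpo, and INA was at 0 in all Cre libraries. The summed level of the 6 was 28.3 to 43.2 CPM in the Cas9, 26.1 to 61.8 CPM in the Cre and 20.2 to 26.7 CPM in the Flpo libraries. The extraction protocol mentions livers, and of 10 liver markers ALB, TTR, SERPINA1, FGA and FGB were at 0 in all Cas9 and Cre libraries, with 5 counts of ALB over the Flpo libraries. The summed level of that list, carried by TF and HP, was 30 to 95.6 CPM in the Cas9, 61.9 to 133 CPM in the Cre and 10.1 to 135 CPM in the Flpo libraries.

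**Figure D1:**
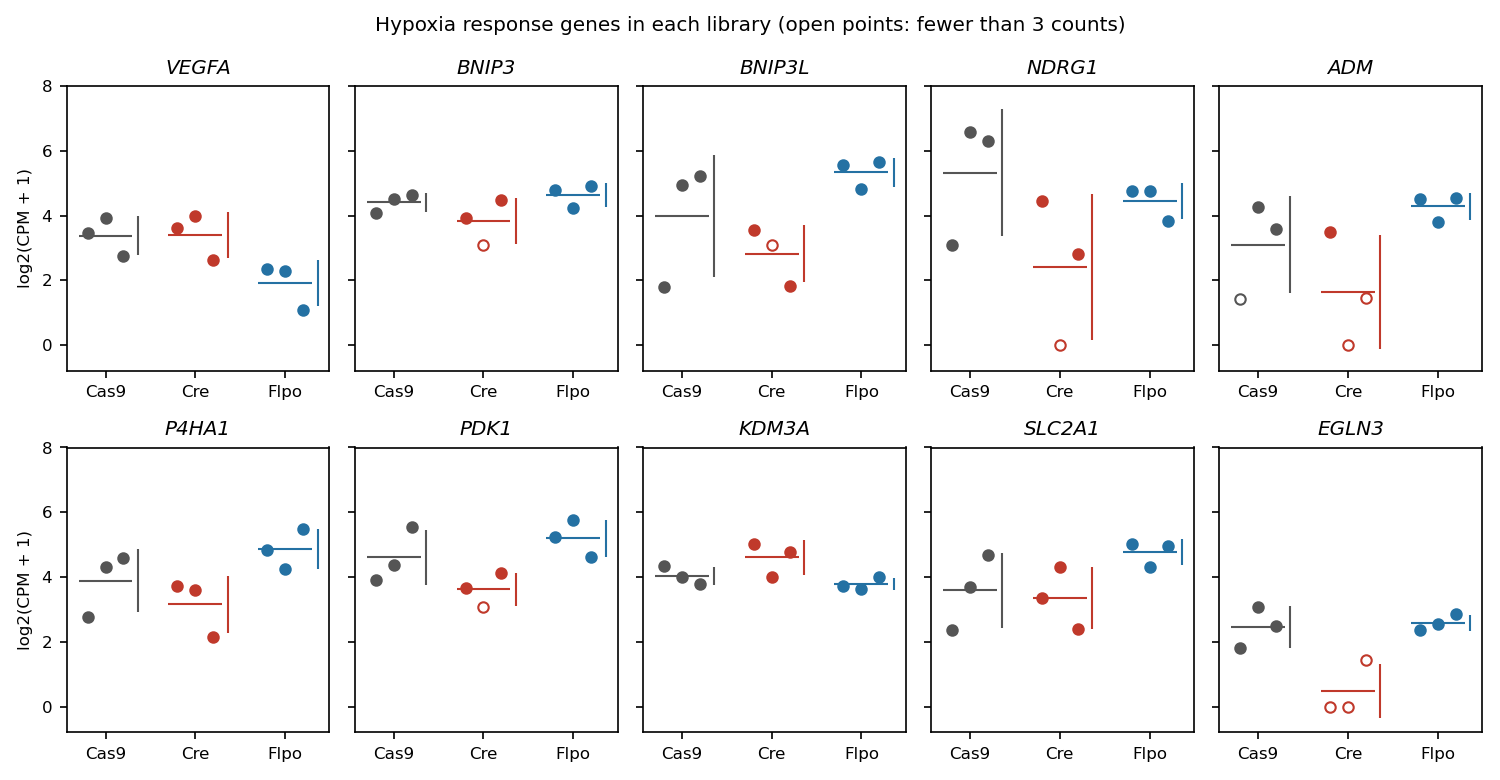
Level of each of the 10 hypoxia response genes in each library, as log2(CPM + 1), with replicates 1 to 3 from left to right in each group, a horizontal line at the group mean and a vertical bar of 1 SD beside it. Open points rest on fewer than 3 counts. VEGFA was lowest in the Flpo libraries, and 15.2% of all tested genes were likewise higher in Cre than in Flpo without overlap. BNIP3L, ADM, P4HA1 and PDK1 were higher in every Flpo library than in any Cre library, as were 27.9% of all tested genes. The EGLN3 points lie in that order too, on 2 counts in the Cre group. As 3 counts in Cre replicate 2 are 11.2 CPM, above the highest Flpo value of 6.23 CPM, that order is not shown for EGLN3.

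BNIP3L and BNIP3 encode proteins of the outer mitochondrial membrane that recruit the autophagy machinery to mitochondria. BNIP3L, which also clears mitochondria from maturing red cells, lies at 8:26382898-26505636 (GRCh38). It had 2.49, 29.8 and 36 CPM in Cas9 replicates 1 to 3, 10.7, 7.47 and 2.57 CPM in the Cre libraries and 45.9, 27.1 and 49 CPM in the Flpo libraries. Every Flpo library was above every Cre library, while the Cas9 libraries covered both ranges, with replicate 1 below the lowest Cre library. The means were 22.8 ± 17.8 CPM in Cas9, 6.92 ± 4.1 CPM in Cre and 40.7 ± 11.9 CPM in Flpo (SD, n = 3 each). The Cre values rest on 22, 2 and 3 counts, and the Flpo values on 266, 106 and 307.

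BNIP3L was the only member that passed the threshold in any of the 3 pairwise comparisons as reported. It was 5.77-fold lower in Cre than in Flpo, a log2 fold change of −2.53 ± 0.84 (SE) with an adjusted p of 0.0497 in edgeR's quasi-likelihood test with Benjamini-Hochberg adjustment over 11905 genes. Relative to the median gene of that comparison the value was −2.19. In bulk RNA, fewer cells of a type and less RNA per cell cannot be told apart. The call was lost when Cas9 replicate 2 or 3, Cre replicate 2 or 3, or Flpo replicate 1 or 3 was left out, with adjusted p from 0.0529 to 0.191, and with scaling by DESeq2's size factors (0.0529), no TMM (0.111) or a minimum count of 30 (0.0505). In the fits without Flpo replicate 1, Cre replicate 2 or Cre replicate 3, 0 genes of the whole table were called for this comparison, so the loss there was not particular to BNIP3L. Adding each library's log2 total count to the model gave a difference of −0.31 with an adjusted p of 0.99 (edgeR), with 0 genes called in the whole table, beside totals that do not overlap between the groups.

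BNIP3 lies at 10:131966455-131982013. Its levels were 15.8, 21.8 and 24 CPM in the Cas9 libraries, 14.1, 7.47 and 21.5 CPM in the Cre libraries and 26.6, 17.6 and 29.2 CPM in the Flpo libraries. The groups overlapped, and the fitted differences were −0.44 ± 0.55 for Cre against Cas9, 0.25 ± 0.52 for Flpo against Cas9 and −0.69 ± 0.54 for Cre against Flpo (log2 ± SE). BNIP3 has processed copies in the genome, and 39 BNIP3 pseudogene rows were in the table, 18 of them with counts. The pseudogenes held 78.9%, 63.6% and 44.4% of the summed counts of BNIP3 and its pseudogenes in the Cas9 libraries, 74%, 85.4% and 79.2% in the Cre libraries, and 14.6%, 65.6% and 12.9% in the Flpo libraries. With those rows added to BNIP3, the Cre against Flpo difference turned from −0.69 to 0.87. The other 2 differences changed sign as well (0.27 for Cre against Cas9 and −0.61 for Flpo against Cas9). The signs for BNIP3 thus depended on whether those rows were counted with it. The pseudogene counts lay mainly in BNIP3P28 (313 counts) and BNIP3P37 (211 counts). Of the short sequence words in the BNIP3 transcripts, BNIP3P37 held 0.131% on the opposite and 0.0561% on the same strand. No shared word was found for BNIP3P28. BNIP3P1 held 15.2% on the same strand, but 2.09 counts. Whether BNIP3 reads were assigned to such rows was not tested.

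VEGFA encodes the main growth factor for blood vessels and lies at 6:43770184-43786487. It had 9.97, 14.3 and 5.71 CPM in the Cas9 libraries, 11.2, 14.9 and 5.15 CPM in the Cre libraries and 4.14, 3.83 and 1.12 CPM in the Flpo libraries. All 3 Flpo libraries were below all 6 others. The means were 10 ± 4.32, 10.4 ± 4.94 and 3.03 ± 1.66 CPM (SD, n = 3), on 57, 33 and 46 counts in the groups. The fitted difference was −1.71 ± 0.73 for Flpo against Cas9 (adjusted p = 0.214, edgeR) and 1.69 ± 0.76 for Cre against Flpo (adjusted p = 0.118, edgeR), so neither passed. Between Cre and Cas9 the difference was −0.02 ± 0.75, an error wide enough to hold a sizeable change either way.

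ADM encodes adrenomedullin, a peptide that widens blood vessels, and lies at 11:10304680-10307397. It had 1.66, 18.4 and 11.1 CPM in the Cas9 libraries, 10.2, 0 and 1.72 CPM in the Cre libraries and 21.9, 13 and 22.2 CPM in the Flpo libraries. Cre replicate 2 held 0 counts, which at its depth allows up to 11.2 CPM, so that library cannot show ADM to be absent. The Cre libraries were all below the Flpo libraries, with a difference of −1.87 ± 0.90 (adjusted p = 0.136, edgeR). Without Cre replicate 1 it passed, at −3.82 (adjusted p = 0.0414, edgeR), in a fit that called 22.7% of all tested genes.

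SLC2A1 and PDK1 act on glucose use. SLC2A1 encodes the glucose transporter GLUT1 and lies at 1:42925375-42959176. Its levels were 4.15, 12 and 24.8 CPM in Cas9, 9.26, 18.7 and 4.29 CPM in Cre and 31.7, 18.7 and 29.9 CPM in Flpo. Cre replicate 2 and Flpo replicate 2 had about the same level, so those groups touched, and the difference of −1.51 ± 0.74 did not pass (adjusted p = 0.144, edgeR).

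PDK1 encodes a kinase that shuts off pyruvate dehydrogenase and so keeps pyruvate out of the mitochondrial cycle. It lies at 2:172555373-172608669. The levels were 14.1, 19.5 and 46 CPM in Cas9, 11.7, 7.47 and 16.3 CPM in Cre and 36.6, 53.2 and 23.5 CPM in Flpo. The Cre libraries all lay below the Flpo libraries, and Cas9 replicate 3 lay among the latter. The Cre values rest on 24, 2 and 19 counts, and in Cre replicate 2 the 3 counts treated as detected are 11.2 CPM. The difference between Cre and Flpo was −1.60 ± 0.62 (adjusted p = 0.077, edgeR).

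P4HA1 encodes the catalytic subunit of a collagen prolyl hydroxylase, which collagen needs to fold, and lies at 10:73007217-73096974. It had 5.82, 18.9 and 23.1 CPM in Cas9, 12.2, 11.2 and 3.43 CPM in Cre and 27.8, 17.9 and 43.9 CPM in Flpo. Again every Cre library was below every Flpo library, by −1.78 ± 0.71 on the log2 scale (adjusted p = 0.084, edgeR). The Cre values rest on 25, 3 and 4 counts. Without Flpo replicate 2 P4HA1 passed, at −2.03 (adjusted p = 0.0338, edgeR), in a fit that called 44.1% of all tested genes, against 20.5% as reported.

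NDRG1, a stress-induced gene often used as a readout of hypoxia in tumours, lies at 8:133237171-133302022. It had 7.48, 95.2 and 78.5 CPM in the Cas9 libraries (9, 166 and 275 counts), 21, 0 and 6.01 CPM in the Cre libraries (43, 0 and 7 counts) and 26.1, 26.1 and 13.1 CPM in the Flpo libraries. Cas9 replicates 2 and 3 stood above every other library, while Cas9 replicate 1 lay among the Cre libraries. NDRG1 had the lowest unadjusted p of the members between Cre and Cas9, 0.0175, at a log2 difference of −2.48 ± 0.91, but its adjusted p was 0.619 (edgeR). Flpo against Cas9 gave −1.48 ± 0.85 (adjusted p = 0.343, edgeR).

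KDM3A and EGLN3 feed back on chromatin and on the pathway. KDM3A encodes a demethylase of histone H3 lysine 9 and lies at 2:86440647-86492716. It had 19.1, 14.9 and 12.8 CPM in Cas9, 31.7, 14.9 and 26.6 CPM in Cre and 12.1, 11.5 and 15 CPM in Flpo. The group means were 15.6 ± 3.19, 24.4 ± 8.58 and 12.9 ± 1.88 CPM (SD, n = 3), and Cre replicate 2 lay inside the range of both other groups. The differences were 0.71 ± 0.52 for Cre against Cas9 and 0.98 ± 0.52 for Cre against Flpo, with an adjusted p of 0.172 (edgeR) for the latter. EGLN3, a prolyl hydroxylase that marks HIF alpha, lies at 14:33924231-34462774 and was the 1 member that the filter on low counts left untested. It had 2.49, 7.46 and 4.57 CPM in Cas9, 0, 0 and 1.72 CPM in Cre and 4.14, 4.86 and 6.23 CPM in Flpo. All 3 Cre libraries were below all 6 others, but the Cre group held 2 counts in all, under the smallest amount treated as detected, and its 2 libraries at 0 allow up to 1.46 and 11.2 CPM, so no fold is given.

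Counts of calls can be set beside those of all tested genes. Between Cre and Cas9, 0 of the 9 tested members passed, and 0% of all tested genes did. At an unadjusted p under 0.05, 1 of 9 passed (NDRG1), against 7.38% of all genes. Between Flpo and Cas9, 0 of 9 passed, against 0.227%, a share that became 21.3% without Flpo replicate 2, where still 0 members passed. It became 0.591% without Cas9 replicate 3, 0.087% without Cre replicate 3 and 0% without Cas9 replicate 1 or 2, Cre replicate 2 or Flpo replicate 1 or 3. Flpo replicate 2 stood apart within its group, with a chi-square per degree of freedom of 261 and 275 against replicates 1 and 3, which had 28.6 between them. At an unadjusted p under 0.05, 1 of 9 passed between Flpo and Cas9 (VEGFA), against 20%. Between Cre and Flpo, 1 of 9 passed (11.1%), against 20.5% of all genes, and 1 of 9 passed as lower, against 14.3%. That 20.5% became 44.1% without Flpo replicate 2, 10% without Cas9 replicate 2, 3.28% without Flpo replicate 3 and 0% without Cre replicate 2, Cre replicate 3 or Flpo replicate 1. At an unadjusted p under 0.05 this was 4 of 9, BNIP3L, PDK1, P4HA1 and VEGFA, against 39.8%. When the groups were tested for a difference of any kind, 0 of 9 passed, against 9.51%, and BNIP3L and NDRG1 had an unadjusted p under 0.05, against 30.4%. Without Cas9 replicate 1 both passed, against 13.6%, and the 9.51% ran from 0.0723% without Cas9 replicate 2 to 33.3% without Flpo replicate 2. Taking first Cre and then Flpo against Cas9, and last Cre against Flpo, DESeq2 called 0, 0 and 1 of the members, against 0.0158%, 7.55% and 27.3% of all genes. In that order, limma voom with quality weights called 4, 3 and 6 of 9, against 33.3%, 61% and 67.6%. Without TMM, 0, 0 and 2 of 9 were called, against 0%, 0.101% and 24.2%, and those 2 were VEGFA and KDM3A, both higher in Cre than in Flpo, in place of BNIP3L.

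Directions of the members were uneven in a way the whole table partly shared. Between Cre and Cas9, 8 of 9 members had a log2 fold change below 0, against 58.4% of all genes, and the median was −0.90, against −0.22 over all tested genes. Between Cre and Flpo this was 7 of 9, against 57.3%, with a median of −1.51 against −0.34. Between Flpo and Cas9 it was 3 of 9, against 48.3%, with a median of 0.49 against 0.05. With the total count in the model these tallies turned: 4 of 9 were below 0 for Cre against Flpo, with a median of 0.37, and 7 of 9 for Flpo against Cas9, with a median of −0.55. Between Cre and Cas9 it stayed at 8 of 9, with a median of −0.32. In the values as reported, the exception in the Cre against Cas9 comparison was KDM3A, and in Cre against Flpo the exceptions were KDM3A and VEGFA. VEGFA counts as below 0 for Cre against Cas9 at −0.02 ± 0.75, although its mean was 10.4 CPM in Cre and 10 CPM in Cas9. That tally was 7 of 9 with DESeq2's size factors, without TMM, with the replicate block and in some other alternatives. Among the 9 tested members, 4 did not overlap and were lower in Cre than in Flpo (BNIP3L, ADM, P4HA1 and PDK1), against 27.9% of all genes, and VEGFA was higher without overlap, against 15.2%. Between Flpo and Cas9 VEGFA alone did not overlap, as lower, against 12.2%, and between Cre and Cas9 no tested member did, against 9.83%. The untested EGLN3 was lower in Cre without overlap against both other groups, on 2 counts. The comparisons share libraries, so their directions are not independent.

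**Figure D2:**
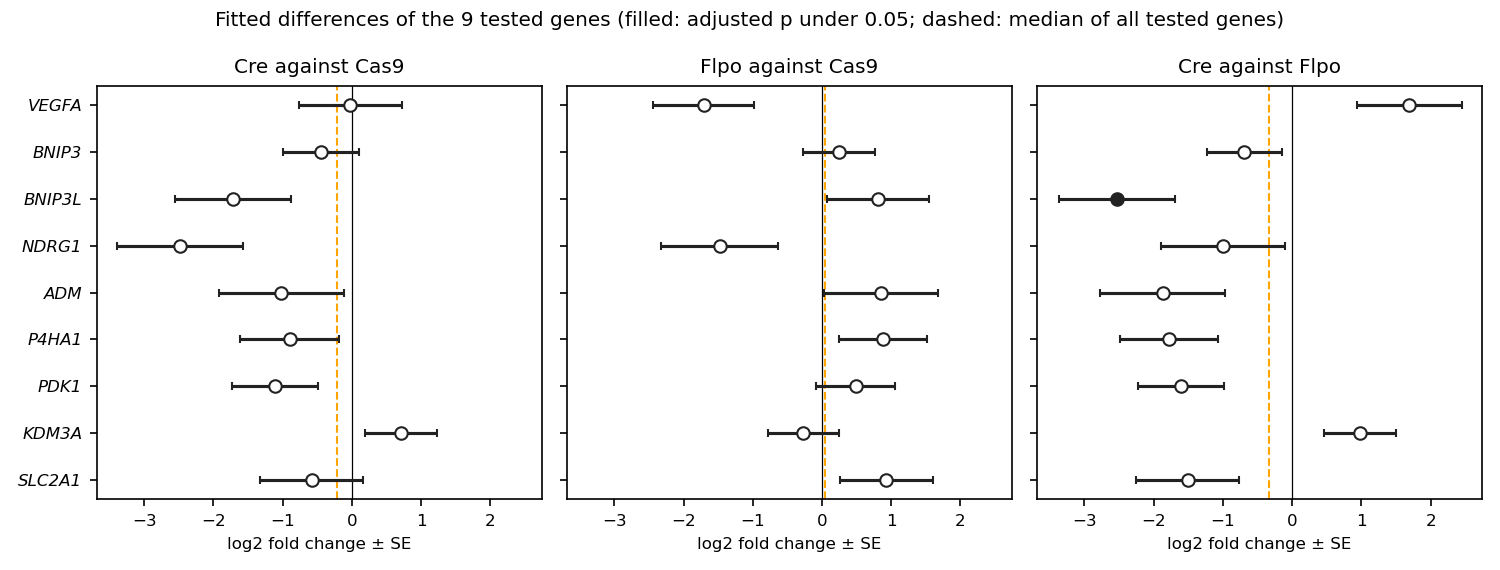
Fitted log2 fold change of the 9 tested hypoxia response genes with its SE in each comparison, with the dashed line at the median of all 11905 tested genes. The filled point is BNIP3L in Cre against Flpo, at −2.53 ± 0.84, and all others are open because their adjusted p was 0.05 or more.

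Depth moved with the levels of several members. The 3 smallest libraries, Cre replicates 2 and 3 and Cas9 replicate 1, were the 3 lowest of the 9 libraries for BNIP3L, NDRG1, ADM and P4HA1. For BNIP3, PDK1, SLC2A1 and EGLN3, 2 of those libraries were among the 3 lowest, and for VEGFA and KDM3A 0 were. Adding the members' values gave 83.1, 252 and 267 CPM in Cas9, 132, 82.1 and 89.2 CPM in Cre and 237, 194 and 233 CPM in Flpo. Cas9 replicate 1 therefore sat among the Cre libraries and the other Cas9 libraries did not. Its part in the results was not tested beyond leaving it out, which kept the BNIP3L call (−2.51, adjusted p = 0.0154, edgeR), with 24.5% of all tested genes called.

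Shares of counts within a library do not depend on scaling between libraries. Of the counts of BNIP3L and VEGFA together, a pair chosen after their values were seen, BNIP3L held 20%, 67.5% and 86.3% in Cas9, 48.9%, 33.3% and 33.3% in Cre and 91.7%, 87.6% and 97.8% in Flpo. The choice of the pair fixed the direction between Cre and Flpo, so these shares are a description. Of the counts of BNIP3 and BNIP3L, BNIP3L held 63.3%, 60.6% and 62.7% in Flpo, against 43.1%, 50% and 10.7% in Cre and 13.6%, 57.8% and 60% in Cas9. The Cre replicate 2 share rests on 2 of 4 counts. With the BNIP3 pseudogenes in the sum, BNIP3L held 59.5%, 34.5% and 59.3% in Flpo, 16.4%, 12.7% and 2.42% in Cre and 3.28%, 33% and 45.4% in Cas9.

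**Figure D3:**
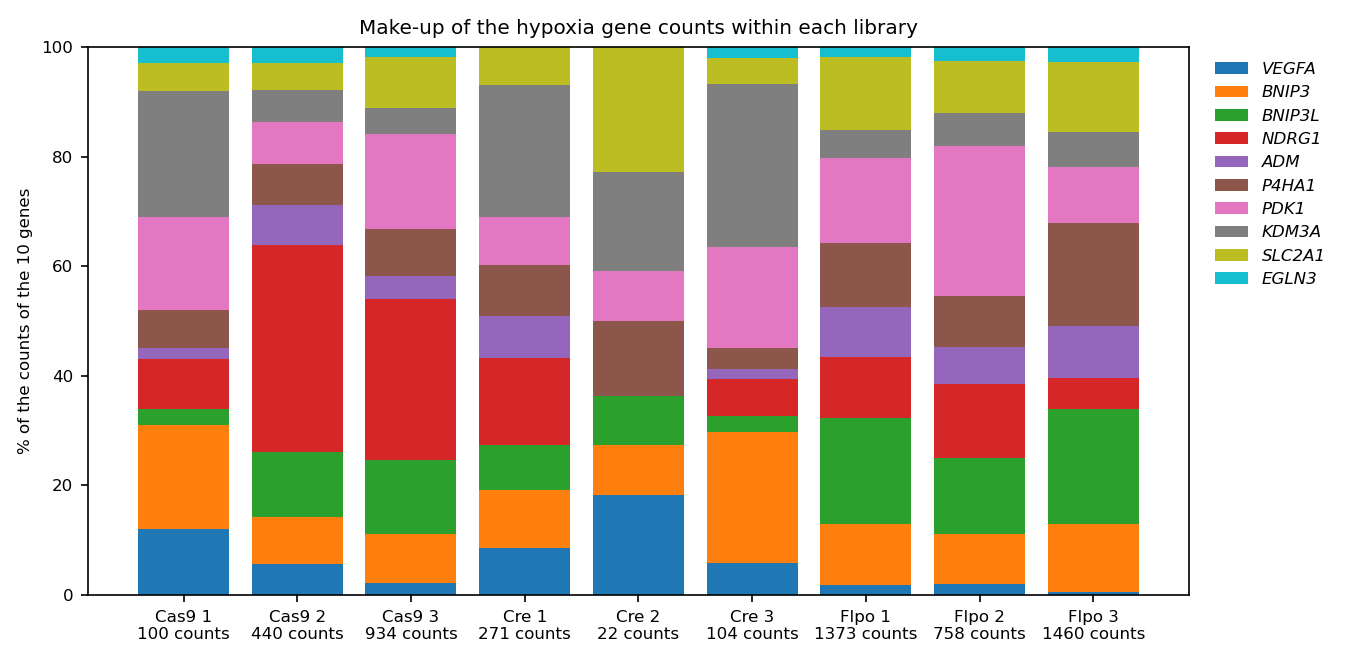
Share in percent of each of the 10 genes in the summed counts of all 10, per library, with that sum under each bar. NDRG1 took 37.7% and 29.4% in Cas9 replicates 2 and 3 and at most 15.9% in the other libraries. KDM3A took 18.2% to 29.8% in the Cre libraries, 5.1% to 6.44% in the Flpo libraries and 23%, 5.91% and 4.82% in Cas9 replicates 1 to 3.

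Members were set against their closest relatives in the same way. KDM3A held 32.4%, 21.1% and 17.2% of the counts of KDM3A, KDM3B and JMJD1C in Cas9, 40.1%, 50% and 56.4% in Cre and 15.5%, 21.8% and 24.3% in Flpo. All Cre libraries were above all others in this share. The Cre replicate 2 share, however, rests on 4 of 8 counts, with a 95% interval of 21.5% to 78.5% that holds the Cas9 replicate 1 value. The level of KDM3A passed no comparison as reported, and passed Cre against Flpo without TMM (1.75, adjusted p = 0.0347, edgeR) and with limma voom (1.07, adjusted p = 0.018). Those fits called 24.2% and 67.6% of all tested genes. PDK1 held 16.8%, 23.3% and 24.3% of the counts of the 4 pyruvate dehydrogenase kinases in Cas9, 20.2%, 12.5% and 19% in Cre and 3.34%, 11.7% and 1.73% in Flpo. The low share in Flpo stood beside 1010, 385 and 1280 CPM of PDK3, whose highest value elsewhere was 118 CPM. P4HA1 held 22.6%, 62.3% and 59.6% of the counts of P4HA1 to P4HA3 in Cas9, 43.1%, 15% and 13.3% in Cre and 74.5%, 54.3% and 67.2% in Flpo. ADM held 4.65%, 50% and 76.5% of the counts of ADM and ADM2 in Cas9, 32.3%, 0% and 6.67% in Cre and 90.7%, 59.3% and 98.6% in Flpo. In Cre replicate 2 the summed counts were 16 for the kinases, 20 for P4HA1 to P4HA3 and 6 for ADM and ADM2, so its shares are uncertain. VEGFA held 2.65% to 10.7% of the counts of the VEGF family in all 9 libraries, and its groups overlapped.

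Between genes, levels were compared per length, as CPM per kilobase of the median annotated protein-coding transcript. In Cas9 the highest means were NDRG1 at 27.7 ± 21.4 and BNIP3L at 20.1 ± 15.7, and VEGFA followed at 8.97 ± 3.87 (SD, n = 3). That order did not hold in Cas9 replicate 1, where NDRG1 was at 3.43 and BNIP3L at 2.2, below VEGFA at 8.94, BNIP3 at 5.52, PDK1 at 4.72 and KDM3A at 4.02. In Cre the highest were VEGFA at 9.34 ± 4.42 and BNIP3L at 6.1 ± 3.62, with SDs that overlap. In Flpo BNIP3L led at 35.9 ± 10.5, followed by ADM at 15.2 ± 4.15, SLC2A1 at 12.7 ± 3.36 and PDK1 at 12.6 ± 4.98, while VEGFA was at 2.72 ± 1.49. The lowest BNIP3L value in Flpo, 23.9, was above the highest of ADM, 17.7. EGLN3 was lowest in every group, at 1.79 ± 0.921, 0.211 ± 0.366 and 1.87 ± 0.391.

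**Figure D4:**
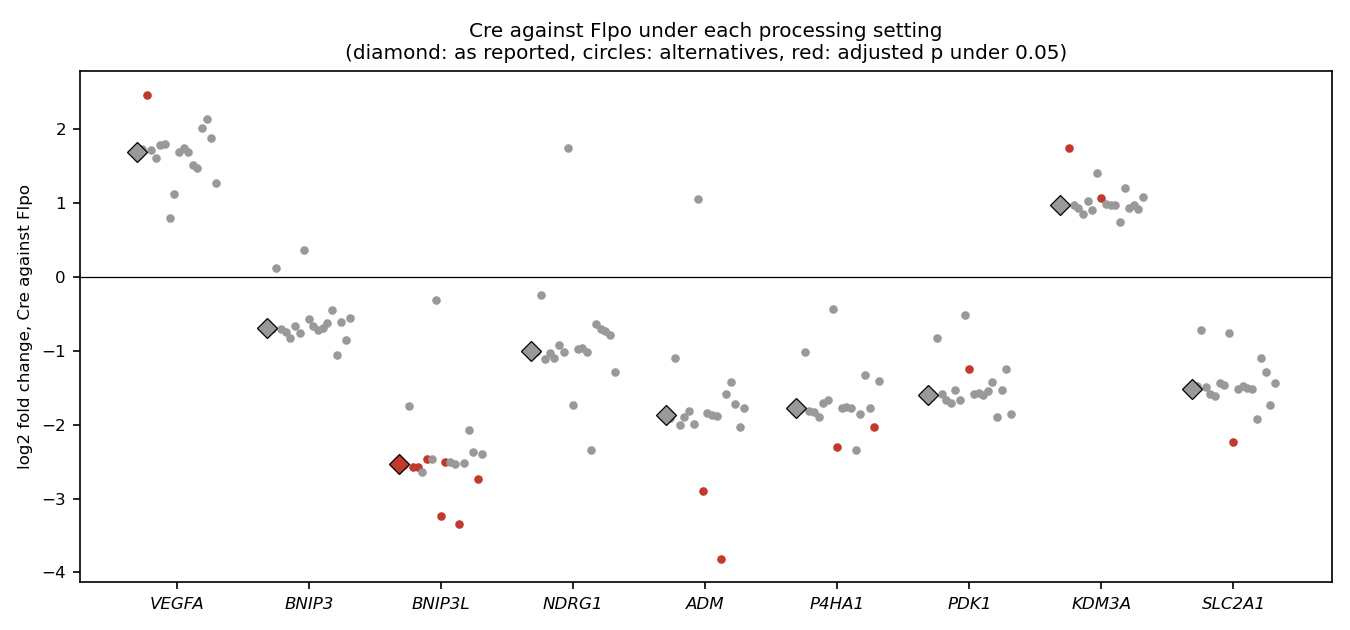
Log2 fold change of the 9 tested genes for Cre against Flpo under each processing setting, with the value as reported as a diamond and alternatives as circles, in red where the adjusted p was under 0.05. BNIP3L was red in only some settings, and ADM, BNIP3 and NDRG1 crossed 0 in others.

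The rest of the pathway was read from lists of 16 genes of the sensing machinery, 35 other HIF targets, 10 glycolytic targets and 18 relatives of the members. Between Cre and Cas9 and between Flpo and Cas9, none of the tested genes of these lists passed in edgeR. At an unadjusted p under 0.05 the lists gave, in that order, 1 and 3 of 15 machinery genes, 2 and 5 of 28 other targets, 0 and 5 of 10 glycolytic targets and 1 and 5 of 16 relatives, against 7.38% and 20% of all genes. Between Flpo and Cas9, DESeq2 called 1 of 16 machinery genes, 2 of 35 other targets and 5 of 10 glycolytic targets, against 7.55% of all genes. Between Cre and Flpo, 4 of 15 tested machinery genes were lower in Cre (26.7%, against 14.3% of all genes lower) and 0 were higher, against 6.17%. They were RBX1, the ring finger subunit of cullin ubiquitin ligases (24.1 against 210 CPM, −3.18 ± 0.80), EGLN1, the main oxygen sensor of the pathway (7.96 against 65.8 CPM, −2.90 ± 0.63), CUL2, the scaffold of the VHL ligase (1.67 against 15.7 CPM, −2.84 ± 0.82), and CITED2, which competes with HIF for coactivators (3.73 against 26.9 CPM, −2.80 ± 0.80). Over the Cre libraries, CUL2 held 8 counts in all, CITED2 14, EGLN1 34 and RBX1 80, so the first of these values lie near the floor. HIF1A itself had 184, 94.7 and 73.7 CPM in Cas9, 155, 202 and 240 CPM in Cre and 49.7, 131 and 67.7 CPM in Flpo and did not pass (adjusted p = 0.101 for Cre against Flpo, edgeR).

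Among the 28 tested other targets, 2 were higher in Cre than in Flpo (7.14%, against 6.17% of all genes higher) and 0 were lower, against 14.3%, so that 7.14% were called in all, against 20.5%. FUT11, a fucosyltransferase, had 276 against 42.3 CPM (2.71 ± 0.58), and KDM4B, a histone demethylase, 81.3 against 28.3 CPM (1.53 ± 0.43). FUT11 was at 40.9, 66.4 and 19.5 CPM in the Flpo libraries and between 130 and 325 CPM in the other 6. Machinery, other and glycolytic calls in Cre against Flpo each fell to 0 without Cre replicate 2, Cre replicate 3 or Flpo replicate 1, where 0 of all tested genes were called, and to 0, 0 and 1 without Flpo replicate 3, where 3.28% were. They were 7, 7 and 7 without Flpo replicate 2 (44.1% of all genes), 4, 4 and 8 without Cre replicate 1 (22.7%), 2, 1 and 4 without Cas9 replicate 2 (10%) and 4, 4 and 5 without Cas9 replicate 1 (24.5%).

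The glycolytic targets that passed were all lower in Cre. Of 10, 5 were lower in Cre than in Flpo (50%, against 14.3% of all genes lower): LDHA (−4.18 ± 0.95), ENO1 (−3.86 ± 0.95), PGAM1 (−3.85 ± 1.05), ALDOC (−3.31 ± 0.86) and PGK1 (−2.17 ± 0.62). LDHA, which makes lactate from pyruvate, had 3490, 856 and 3500 CPM in Flpo and 66.9 to 193 CPM in Cre. Their median difference between Flpo and Cas9 was 1.72, against 0.05 over all genes, and yet 0 of 10 passed there. These enzymes also serve glucose use under normal oxygen, and many have processed pseudogenes.

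Of the 16 tested relatives, 1 was higher and 4 lower in Cre than in Flpo (31.2%, against 20.5%). PGF, placental growth factor of the VEGF family, was higher (135 against 34.3 CPM, 1.98 ± 0.54), at 106, 149 and 150 CPM in the Cre libraries against 26.1, 55.2 and 21.6 CPM in the Flpo libraries. PDK3 (48 against 890 CPM, −4.21 ± 0.70), EGLN1, PDK2 (−2.74 ± 0.76) and NDRG3 (−2.01 ± 0.48) were lower, and NDRG3 was named after its values were seen.

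Between Flpo and Cas9 the adjusted p of the genes named there were 0.0508 for PDK3 (3.58 ± 0.67), 0.0692 for EGLN1 (2.49 ± 0.59) and FUT11 (−2.45 ± 0.57), 0.0908 for ALDOC (2.90 ± 0.79), 0.102 for PGK1 (2.10 ± 0.61), 0.109 for KDM4B (−1.39 ± 0.43) and 0.154 for CITED2 (1.95 ± 0.71), all by edgeR. Between Cre and Cas9 every gene chosen for naming in these lists had an adjusted p of 0.619 (edgeR), with differences of −1.96 ± 0.77 for RBX1, −1.20 ± 0.69 for EGLN2, −1.86 ± 0.81 for BHLHE41, −1.27 ± 0.58 for CA12, −1.97 ± 0.98 for PGAM1, −1.49 ± 0.85 for LDHA, −2.58 ± 1.04 for NDRG4 and 2.05 ± 0.98 for P4HA3.

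**Figure D5:**
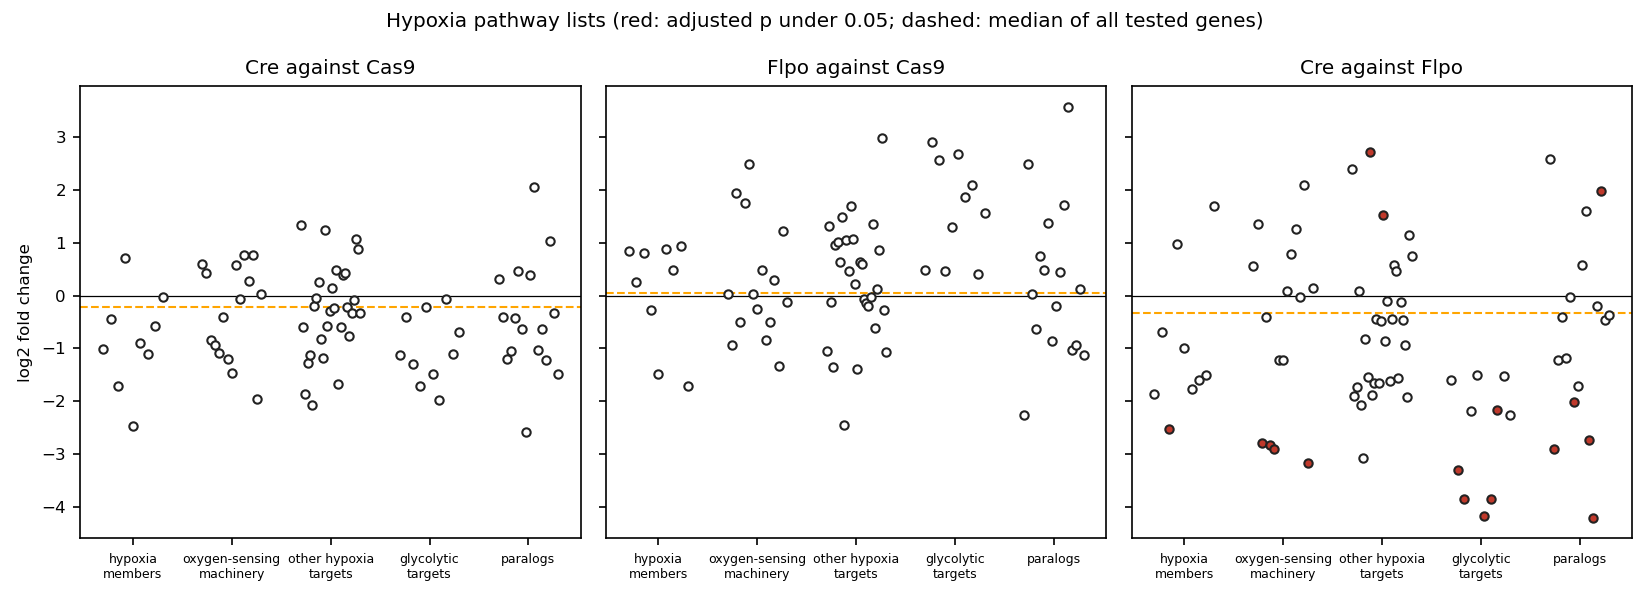
Log2 fold change of the tested genes of each list in the 3 comparisons, with the median of all tested genes dashed and genes with an adjusted p under 0.05 in red. Red points appear in Cre against Flpo alone, 1 of them among the members and 5 among the glycolytic targets.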

How the data were processed

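RNA from 9 HEK293 samples was extracted with TRIzol and made into TruSeq libraries, per the labels' protocols. The values the authors deposited are estimated counts for each gene symbol, not normalized. The submitters' processing notes name Salmon 0.14.1 and hg38. How transcripts were summed to genes, whether genes were filtered and whether strand was used are not given in the sources used here. The design had been written for whole counts, so the estimated counts were rounded. The share of nonzero values lying more than 0.01 from a whole number was 43.3% to 57.1% per library.

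The main test was the quasi-likelihood test of edgeR 4.0.16 in R 4.3.3, with TMM scaling, in a single fit of all 9 libraries without covariates. Its filter (minimum count 10, minimum total 15) left 11905 genes, including 9 of the 10 members, and 23971 untested. Benjamini-Hochberg adjustment ran over all of these 11905 genes, with a threshold of 0.05. Standard errors were derived from each log2 fold change and its F statistic. The biological coefficient of variation was 0.556. Nothing in the labels says that replicates are separate cultures, so p-values measure the spread between these libraries, which may be technical. Replicates differed by more than sampling noise (chi-square per degree of freedom from 10.8 to 275). In simulated data for Flpo against Cas9 at the real dispersion, 181 of 200 genes changed 16-fold were recovered among 11905, with 10 false calls. Smaller changes, and changes in the Cre group, were not simulated. The largest fitted change of a member in that comparison was 3.26-fold (VEGFA), so the recovery does not tell how often such changes would be found.

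The members and lists were chosen with earlier results of these data known. A gene of the list of other targets is not reported here and was left out of its counts. All members are named. Of each other list and comparison the rule named up to 3 genes per direction past the threshold with the largest change, or up to 2 with the smallest p where none passed. Gene positions are from GENCODE 29 (GRCh38). Alternatives used DESeq2 1.42.0, limma 3.58.1 and other scalings, filters and sets of libraries. BNIP3 with its pseudogenes added was an alternative chosen after seeing the data.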

Additional observations from a re-analysis of the deposited data

Results flagged for a closer look

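Cre and Flpo, each with Cas9, were compared with each other directly. None of the genes listed here passed for Cre or for Flpo against Cas9 in edgeR, and an effect of the recombinases was not tested. The following genes named above differed between Cre and Flpo past the threshold of 0.05 (edgeR's quasi-likelihood test, adjusted p). Among the hypoxia response genes it was BNIP3L, at a log2 fold change of −2.53 for Cre against Flpo. Of the sensing machinery they were RBX1 (−3.18), EGLN1 (−2.90), CUL2 (−2.84) and CITED2 (−2.80). Of the glycolytic targets they were LDHA (−4.18), ENO1 (−3.86), PGAM1 (−3.85), ALDOC (−3.31) and PGK1 (−2.17). Of the relatives of the members they were PDK3 (−4.21), PDK2 (−2.74), NDRG3 (−2.01) and PGF (1.98). Of the other HIF targets they were FUT11 (2.71) and KDM4B (1.53). The Cre libraries were all shallower than the Flpo libraries, and depth and group cannot be told apart. Over the Cre libraries CUL2 held 8 counts, CITED2 14, PDK2 20, and ALDOC and BNIP3L 27 each.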

How the results depend on the processing

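For the members, 438 of 483 values kept direction and side of the threshold, 11 lost and 16 gained a call, and 18 reversed. Without TMM the median over all genes in Cre against Flpo moved from −0.34 to 0.44, in Flpo against Cas9 from 0.05 to −0.48 and in Cre against Cas9 from −0.22 to 0.03. In the order Cre against Cas9, Flpo against Cas9, Cre against Flpo, limma voom with quality weights called 4, 3 and 6 members (0, 0 and 1 as reported). It called 33.3%, 61% and 67.6% of all genes there. For any difference it called 8 members, against 79.6% of all genes. In the same order of comparisons it called 6, 10 and 9 machinery genes, 6, 12 and 15 other targets and 7, 7 and 10 glycolytic targets. For Cre against Flpo, all genes called were 21.3% with DESeq2's size factors, 24% with a minimum count of 30 and 13.2% with the replicate block. They were 0% with the total count as covariate, 24.2% without TMM, 27.3% with DESeq2, 16.9% with only the groups compared and 24.1% with thinned libraries. Members called were 0 with DESeq2's size factors, a minimum count of 30, the replicate block or the total count as covariate, and 2 (VEGFA and KDM3A, both higher) without TMM. For any difference, no filter gave 2 members, against 12.3% of all genes. Between Cre and Flpo, machinery calls were 2 with a minimum count of 30, 2 with the block, 0 with the covariate and 1 with libraries thinned to the smallest total, which left no member testable. Other targets gave 5 without TMM, 7 with DESeq2, 5 with only the groups compared, 1 with the block and 0 with the covariate, and glycolytic targets 8 with DESeq2 and 0 with the covariate. For Flpo against Cas9, DESeq2 called 1 machinery gene, 2 other and 5 glycolytic targets (7.55% of all genes), and no filter 1, 2 and 4 (4.6%). Leaving out each library in turn gave 0 to 2 members for Cre against Flpo and for any difference. It gave 0 to 7 machinery, 0 to 7 other and 0 to 8 glycolytic genes for Cre against Flpo, 0 to 3, 0 to 2 and 0 to 4 for Flpo against Cas9, and 0 throughout for Cre against Cas9. The share of all genes called in these fits ran from 0% to 44.1% for Cre against Flpo and from 0% to 21.3% for Flpo against Cas9. It was 0% throughout for Cre against Cas9 and ran from 0.0723% to 33.3% for any difference.

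Reversals with the total count as covariate were ADM 1.05, BNIP3 0.37 and NDRG1 1.75 for Cre against Flpo and ADM −1.33, BNIP3 −0.41, BNIP3L −0.57 and PDK1 −0.09 for Flpo against Cas9. Without TMM BNIP3 was 0.12 for Cre against Flpo and −0.28 for Flpo against Cas9, and VEGFA 0.19 for Cre against Cas9. With its pseudogenes BNIP3 was 0.27, −0.61 and 0.87. VEGFA was 0.02 with DESeq2's size factors and 0.00 with the replicate block for Cre against Cas9. With each library left out in turn, for Cre against Cas9, SLC2A1 ran from −1.0 to 0.19 and VEGFA ran from −0.32 to 0.33. The cause was not tested. Same-numbered replicates did not deviate together throughout (correlations from −0.549 to 0.527, with 1 of 9 same-numbered pairs each other's best match). With 3 libraries per group, such correlations cannot show whether the numbers mark a pairing. With the replicate block 0 members passed in all 3 comparisons, and BNIP3L had −2.47 and an adjusted p of 0.0826 for Cre against Flpo (edgeR). Depth limits the Cre values most, where 3 counts in replicate 2 are 11.2 CPM.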

Other observations

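BNIP3 and BNIP3L share sequence with other genes in the annotation. Of the words of 31 bases in the annotated transcripts of BNIP3, 15.2% also occur in BNIP3P1 on the same strand, and BNIP3P1 held 1 count in Flpo replicate 1, 1.09 in Flpo replicate 2 and 0 in the other libraries. The pseudogene counts lay mainly in BNIP3P28, at 41.4, 18.9 and 23.7 counts in Cas9, 59.6, 7.28 and 83.3 in Cre and 7.68, 65.9 and 5.23 in Flpo, and in BNIP3P37. No shared word was found for BNIP3P28, and BNIP3P37 held 0.131% of the BNIP3 words on the opposite strand and 0.0561% on the same strand. Of the words of BNIP3L, 6.95% occur on the opposite strand in PNMA2, which held 216, 142 and 287 counts in Cas9, 229, 43.3 and 253 in Cre and 324, 965 and 299 in Flpo. Without strand, reads from such an overlap cannot be told apart.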
